A study of Mus musculus with 24 samples.

Results

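Leukocytes leave the blood through adhesion molecules on the endothelium, and 5 genes for such molecules are described here: Selp (P-selectin), Sele (E-selectin), Icam1, Vcam1 and Madcam1. Their members are the probe sets whose annotated symbol on the platform is 1 of these genes, which gave 9 of 34945 named probe sets and 5 of 18193 genes. The rule reads the symbol alone, and the genes were chosen with earlier results of these data known. Selp and Vcam1 had 3 probe sets each, and the other genes 1 each. The selectins are carbohydrate-binding proteins that slow leukocytes down and let them roll along the vessel wall. Icam1, Vcam1 and Madcam1 are immunoglobulin-superfamily proteins that bind leukocyte integrins and hold the cells firmly. In most endothelia these genes are low at rest and are induced by cytokines through NF-kB, a family of transcription factors that bind kappaB sites, while P-selectin is also kept ready in granules called Weibel-Palade bodies.

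Gene expression was measured on 24 Affymetrix mouse arrays, 3 for each of 8 groups of cultured retinal endothelial cells. One genotype was Fz4-/-, without the frizzled-4 receptor that binds the ligand Norrin, and the other wild type. Both were plated on Matrigel (an extract of basement membrane) for a period of 6 hours, which followed starvation for 24 hours in 1% FBS, or were kept on gelatin, with no starvation named. Substrate and the named starvation therefore coincide in Matrigel against gelatin and cannot be told apart. A Matrigel difference or response below is that of the whole procedure. Both genotypes were also grown with HEK293 cells, a human embryonic kidney line, that stably expressed Norrin, or with control HEK293 cells. All animals were adult, of mixed gender and of C57Bl6/129 mixed background, and all cells, wild type included, bear a transgene of SV40 large T antigen that is temperature sensitive and is driven by the interferon gamma responsive H2Kb promoter. RNA was taken at 37 °C without interferon gamma. Per the labels, about as much human as mouse RNA was in a co-culture sample, and human transcripts can bind mouse probes. The labels do not say whether replicates were separate cultures or how many lines were made per genotype.

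Values are log2 intensities after RMA, and differences are in the same log2 units, so equal steps are equal folds. Tests are limma's moderated linear models with Benjamini-Hochberg adjustment over all 18193 genes, a gene passed at an adjusted p below 0.05, and ± after a difference is its SE. As replicates may be technical, p-values measure the spread between these arrays. The arrays fall into 3 sets by their medians, at 5.02 to 5.10 for the 12 single cultures, 3.21 to 3.31 for the 6 Fz4-/- co-cultures and 3.44 to 3.52 for the 6 wild type co-cultures. Levels are therefore compared within a set, and in the co-cultures genotype and array set cannot be told apart. Replicate 1 stood apart in 6 of the 8 groups, with an SD of gene differences of 0.299 to 0.354 to replicates 2 and 3, which had 0.147 to 0.193 between them. Fzd4, the deleted gene, averaged 5.06 ± 0.44 in Fz4-/- and 8.70 ± 0.35 in wild type cells on gelatin, and 2.82 ± 0.13 in Fz4-/- and 6.24 ± 0.05 in wild type cells with control HEK293 cells (SD, n = 3). Of 14 endothelial markers, 13 were well above the genes of other tissues in the single cultures, but Vwf stayed at 2.18 to 3.58 on every array. As a guide to background, 16 genes of other tissues, such as Alb and Ins2, had values of 2.28 to 5.94 across the single-culture arrays. The median of these array values was 3.95 and their 90th percentile 5.29. In Fz4-/- co-cultures their median was 2.87 and their 90th percentile 3.89, and in wild type co-cultures 3.29 and 4.96.

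The promoters of these genes are shown because NF-kB induces most of them, and RefSeq promoter sequences (250 bases before to 50 after the start, assembly GRCm38.p6, plus strand) matched 4 of the 5. Capitals mark matches to GGNNNTTCC, a form of the kappaB site, to a longer form of 3 G, 4 bases of any kind and 3 C, or to the TATA box letters TATAAA. Each was searched on either strand. In order, the windows are chr1:164115014-164115313, chr1:164047984-164048283, chr9:21015690-21015989 and chr10:79664309-79664608.
Selp: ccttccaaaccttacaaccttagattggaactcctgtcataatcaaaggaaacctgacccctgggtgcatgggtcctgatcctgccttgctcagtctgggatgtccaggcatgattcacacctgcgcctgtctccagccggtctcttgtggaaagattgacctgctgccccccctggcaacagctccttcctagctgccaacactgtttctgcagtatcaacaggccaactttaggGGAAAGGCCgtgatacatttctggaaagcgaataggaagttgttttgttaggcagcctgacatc
Sele: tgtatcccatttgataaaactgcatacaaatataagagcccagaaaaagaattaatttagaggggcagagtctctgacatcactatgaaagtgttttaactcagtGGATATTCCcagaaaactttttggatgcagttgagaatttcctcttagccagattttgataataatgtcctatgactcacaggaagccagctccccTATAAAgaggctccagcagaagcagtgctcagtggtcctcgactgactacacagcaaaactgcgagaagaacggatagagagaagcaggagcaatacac
Icam1: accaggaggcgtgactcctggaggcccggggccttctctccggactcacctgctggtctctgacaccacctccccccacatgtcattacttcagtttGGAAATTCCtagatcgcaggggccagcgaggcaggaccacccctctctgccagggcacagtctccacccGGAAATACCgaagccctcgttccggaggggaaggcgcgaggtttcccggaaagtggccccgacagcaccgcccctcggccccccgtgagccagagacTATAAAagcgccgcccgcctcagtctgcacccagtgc
Madcam1: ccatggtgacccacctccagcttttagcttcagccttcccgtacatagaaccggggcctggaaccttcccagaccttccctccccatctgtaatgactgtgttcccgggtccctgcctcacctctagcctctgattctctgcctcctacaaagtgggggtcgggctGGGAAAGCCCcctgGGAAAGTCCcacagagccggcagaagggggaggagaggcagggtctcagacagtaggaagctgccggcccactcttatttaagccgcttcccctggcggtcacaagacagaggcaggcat

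Each of these windows held a match to GGNNNTTCC, which 18.5% of all 32851 promoters of that length also hold on either strand. In Selp the match lay from base -14 to -6 on the minus strand, next to the start. Sele had a match from -145 to -137 and TATAAA from -49 to -44. Icam1 had a match from -153 to -145 that fits the pattern on both strands, a further match on the minus strand from -84 to -76, and TATAAA after the annotated start, from base 14 to 19. In Madcam1 a match to the longer form from -84 to -75 overlapped a match to GGNNNTTCC, and another GGNNNTTCC lay from -70 to -62. The longer form occurs in 11.9% and TATAAA in 13.6% of all promoters, each counted on either strand, while the TATAAA matches here lie on the plus strand. A match of letters is not a binding site, and binding was not measured here.

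The 5 genes did not move as a block. Fz4-/- cells grown alone carried more Selp and Madcam1 RNA and less Vcam1 than wild type cells, and Matrigel went with higher Selp and Icam1 in Fz4-/- cells. With Norrin-expressing HEK293 cells, Selp, Sele and Icam1 fell in both genotypes, and the Selp fall was larger in wild type. By limma, 3 of 5 genes passed between genotypes on gelatin, where 14.9% of all genes did, and 4 of 5 on Matrigel, against 15.7%. In Matrigel against gelatin, 2 of 5 passed in Fz4-/- cells (19.7% of all genes). In wild type cells 0 of 5 passed, against 18.4% of all genes. There 0 of 5 also had an unadjusted p below 0.05, as 5904 of 18193 genes had. The Matrigel response differed between genotypes in 0 of 5 genes by limma (0.0165% of all genes), 1 at an unadjusted p below 0.05 (830 of 18193 genes). With Norrin-expressing cells, 3 of 5 genes were lower in Fz4-/- cells, where 0.242% of all genes were lower, and 4 of 5 in wild type cells, against 4.18%. The fourth of these is Vcam1, which turned to 0.14 as the mean of its probe sets (adjusted p = 0.649) and to 0.35 (adjusted p = 0.0451) with probe sets that carry no cross-hybridization suffix. The Norrin response differed between genotypes in 1 of 5, against 2.12% of all genes. Between genotypes in co-culture, 3 of 5 passed with Norrin-expressing and 2 of 5 with control cells, near the 49.9% and 50.9% of all genes that passed there. With replicates 2 and 3 averaged into 1 sample, an alternative chosen after seeing the data, the counts were 2 on Matrigel between genotypes and 1 for Matrigel in Fz4-/- cells, and with Norrin-expressing cells 0 in Fz4-/- and 2 in wild type.

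**Figure D1:**
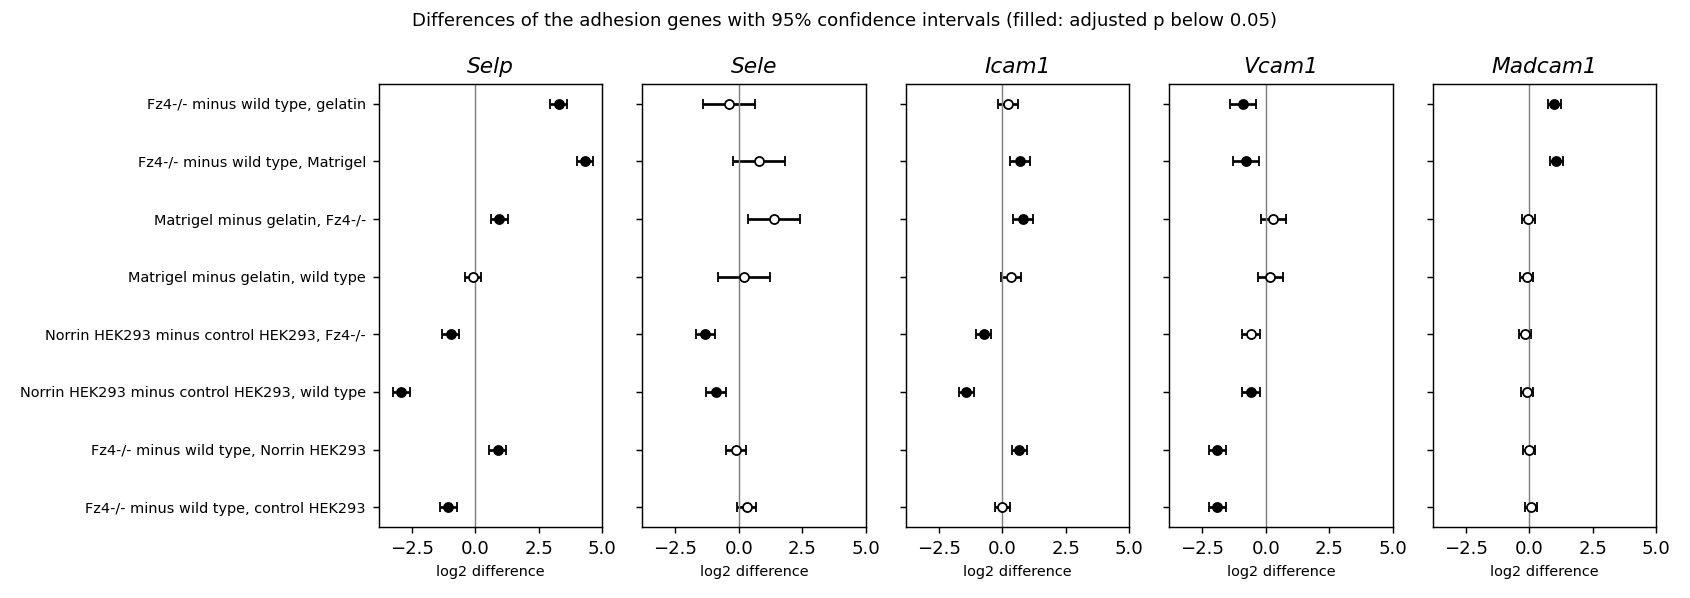
Log2 differences of the 5 adhesion genes in 8 comparisons, a panel per gene, with 95% confidence intervals from limma (n = 3 arrays per group). Filled points passed at an adjusted p below 0.05 over all genes, among them Selp at 3.30 on gelatin and 4.33 on Matrigel for Fz4-/- minus wild type, and at -2.91 for Norrin-expressing minus control HEK293 in wild type.

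Selp encodes P-selectin, which binds the leukocyte ligand PSGL-1 and catches cells from the stream. On gelatin it lay at 7.41, 7.33 and 7.55 in Fz4-/- cells, in order of replicate number, against 3.88, 4.34 and 4.18 in wild type cells. On Matrigel it lay at 8.19, 8.48 and 8.46 in Fz4-/- cells, against 4.21, 3.73 and 4.20 in wild type cells. The genotypes were wide apart on both, and the wild type values sat at the level of the genes of other tissues. Selp was higher in Fz4-/- by 3.30 ± 0.15 on gelatin (SE, 9.83-fold, limma adjusted p = 8.95e-08) and by 4.33 ± 0.15 on Matrigel (20.1-fold, adjusted p = 1.07e-08). Because the wild type level is near background, the size of these folds is less sure than their direction. Fewer cells that carry a transcript and less of it per cell cannot be told apart in such bulk RNA.

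Matrigel minus gelatin was 0.95 ± 0.15 for Selp in Fz4-/- cells (adjusted p = 0.00178), where the 3 Matrigel arrays lay above the 3 gelatin arrays. In wild type cells it was -0.08, with a 95% confidence interval from -0.42 to 0.25 (adjusted p = 0.750). The difference between these responses was 1.03 ± 0.22 and did not pass over all genes (adjusted p = 0.348, 95% interval 0.559 to 1.501). Selp is also a platelet gene, and the platelet marker Pf4 averaged 8.75 in Fz4-/- and 7.30 in wild type cells on gelatin. Among the other platelet markers, Ppbp (1.80 to 3.51 on all arrays) and Gp6 (2.34 to 3.70) stayed near background. Itga2b, Gp9 and Treml1 are read here only within the mean of all 6. The summed level of 6 platelet markers, as a mean per array, was 5.09 to 5.34 in Fz4-/- and 4.999 to 5.14 in wild type cells on gelatin. Of the 14 endothelial markers, 5 were higher in Fz4-/- and 0 lower on gelatin, where 14.9% of all genes passed. Their mean level per array was 10.12 to 10.30 in Fz4-/- and 9.98 to 10.09 in wild type cells. The mean of 7 retinal glia and neuron markers per array was 5.73 to 5.84 in Fz4-/- and 5.06 to 5.13 in wild type cells on gelatin, and 5.61 to 5.82 and 5.04 to 5.11 on Matrigel, with 1 marker higher in Fz4-/- and 0 lower on each. Among them Thy1, a surface protein of neurons that other cells also carry, averaged 8.29 in Fz4-/- and 3.97 in wild type cells on gelatin, while the glial markers Rlbp1 (2.65 and 2.60) and Aqp4 (3.34 and 3.49) lay near background in both. The part of these markers in the Selp difference was not tested.

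In co-culture the order of the Selp levels was another. With Norrin-expressing cells Selp lay at 5.43, 6.10 and 5.95 in Fz4-/- cells, against 6.83, 6.71 and 6.84 with control cells. In wild type cells it lay at 4.97, 5.14 and 4.71 with Norrin-expressing cells, against 7.55, 7.99 and 8.02 with control cells. No array of a Norrin group reached a control array of its genotype. The fall was 0.96 on the log2 scale in Fz4-/- cells (-0.96 ± 0.16, 1.95-fold, adjusted p = 0.00857) and 2.91 in wild type cells (-2.91 ± 0.16, 7.52-fold, adjusted p = 2.57e-09). limma's test of the difference between the genotypes gave 1.95 ± 0.23 (adjusted p = 0.000126, 95% interval 1.46 to 2.44). The Fz4-/- fall lost its call without Norrin replicate 1 (-0.76, adjusted p = 0.0510), control replicate 1 (-0.94, 0.0511) or control replicate 3 (-0.94, 0.0631).

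The fall of Selp in wild type cells went with higher endothelial markers. Of the 14 markers, 12 were higher with Norrin-expressing than with control cells, with a median difference of 0.78, and their mean level per array was 6.80 to 7.21 with Norrin-expressing and 6.16 to 6.40 with control cells. In Fz4-/- co-cultures 0 of 14 passed (median 0.23), at 7.35 to 7.51 with Norrin-expressing and 7.198 to 7.31 with control cells. Pf4 averaged 3.92 with Norrin-expressing and 5.11 with control cells in wild type, and 6.01 and 6.99 in Fz4-/- cells. The mean level of the 6 platelet markers per array was 4.16 to 4.34 with Norrin-expressing and 4.52 to 4.72 with control cells in wild type, and 4.10 to 4.295 and 4.301 to 4.44 in Fz4-/-, with 1 marker lower and 0 higher in each genotype. That of 10 leukocyte markers was 3.70 to 3.84 with Norrin-expressing and 3.97 to 4.12 with control cells in wild type, with 1 lower and 0 higher, although Ptprc, which marks leukocytes at large, stayed at 2.00 to 3.10 on all 24 arrays. These platelet means, and the leukocyte means of wild type, did not overlap between the HEK293 groups and lay in the same direction as Selp. The share of these in the Selp values was not tested.

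Between genotypes in co-culture, Selp was higher in Fz4-/- by 0.89 ± 0.16 with Norrin-expressing cells (adjusted p = 0.000259) and lower by -1.06 ± 0.16 with control cells (adjusted p = 4.51e-05). The second sign is opposite to that in cells grown alone. The median of all genes was -0.20 in both co-culture comparisons, which also coincide with the array sets.

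The other Selp probe sets were dimmer and gave the same direction in part. On gelatin, 1449906_at was higher in Fz4-/- by 1.82 ± 0.36 (adjusted p = 0.00611 over all probe sets) and 1440173_x_at by 0.79 ± 0.27, which did not pass (0.0805). On Matrigel both were higher, by 2.33 ± 0.36 and 1.72 ± 0.27. With Norrin-expressing cells in wild type, the differences were -1.81 ± 0.20 on 1449906_at and -1.71 ± 0.17 on 1440173_x_at, and both fell. In Fz4-/- the differences were -1.05 ± 0.20 (adjusted p = 0.0531) and -0.41 ± 0.17 (0.588). The genotypes with Norrin-expressing cells differed by -0.75 ± 0.17 on 1440173_x_at, opposite to the probe set used, and by 0.27 ± 0.20 on 1449906_at, and the mean of the probe sets gave 0.14 (adjusted p = 0.488). The direction of Selp in that comparison therefore differs between probe sets.

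**Figure D2:**
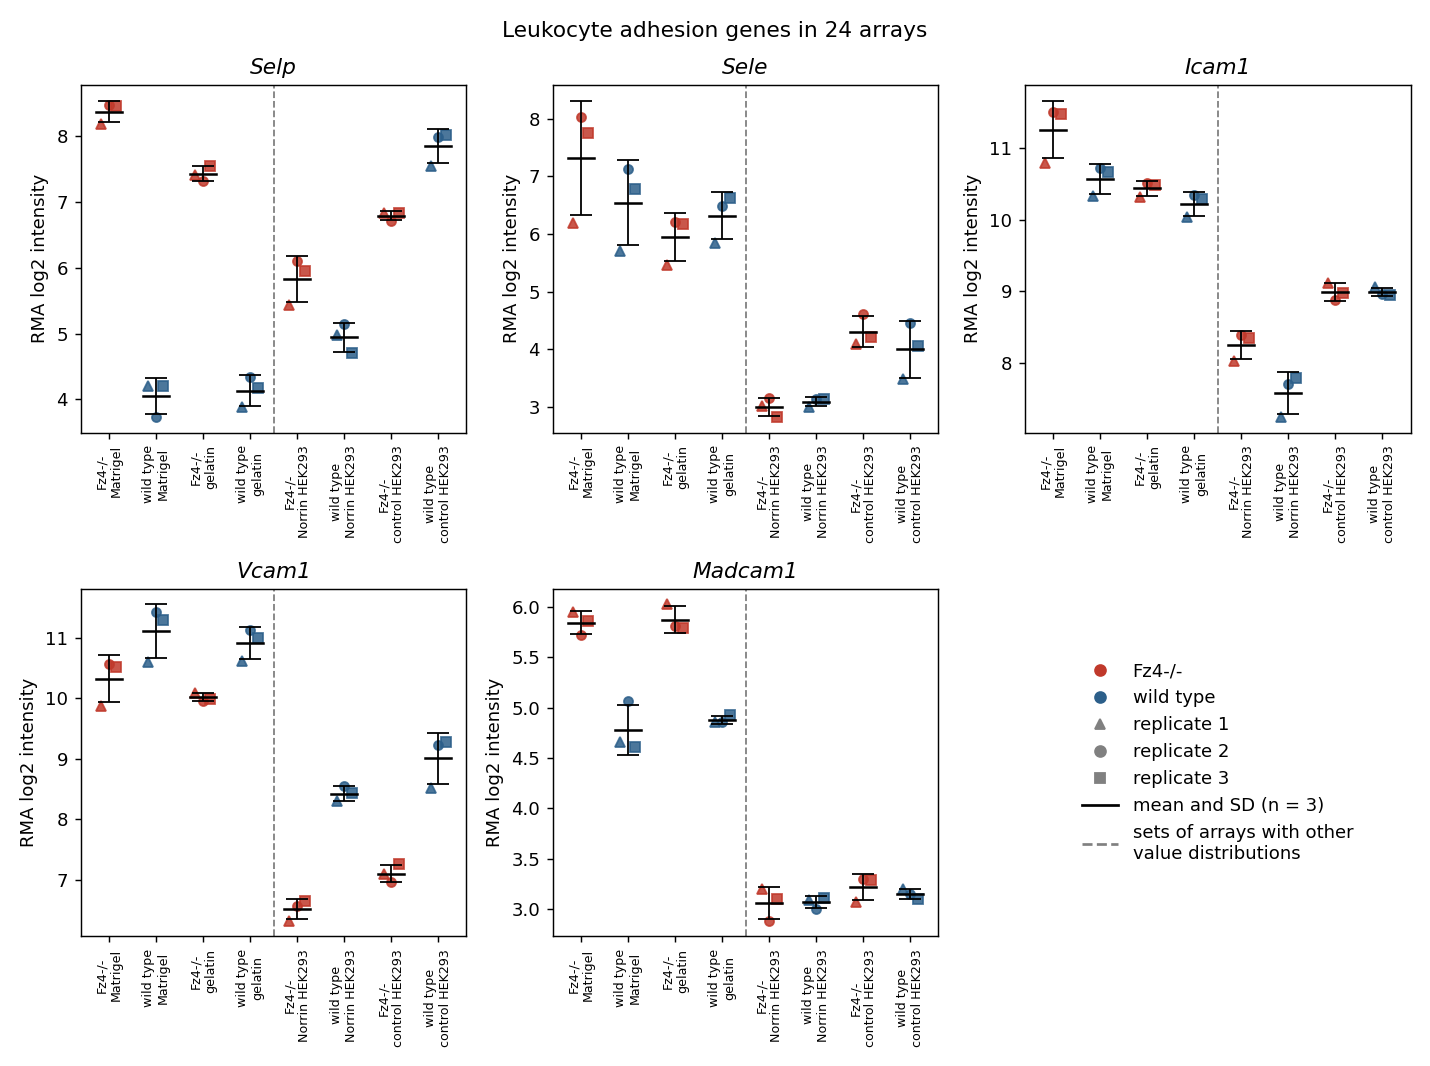
RMA log2 intensity (vertical axis) of the 5 adhesion genes in 24 arrays by genotype and culture, with the mean and SD of 3 arrays. The dashed line parts single cultures from co-cultures, whose values have other distributions, as do those of the co-cultures of each genotype. Selp is at 7.33 to 8.48 in Fz4-/- and 3.73 to 4.34 in wild type cells grown alone.

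Sele encodes E-selectin, which endothelial cells make anew when cytokines act on them and which supports slow rolling. On Matrigel it lay at 6.20, 8.03 and 7.75 in Fz4-/- cells, against 5.72, 7.13 and 6.79 in wild type cells. On gelatin it lay at 5.47, 6.20 and 6.17 in Fz4-/- cells, against 5.85, 6.49 and 6.62 in wild type cells. Replicate 1 was the lowest array in each of these 4 groups, and the groups overlap. Genotype differences were 0.78 ± 0.47 on Matrigel (adjusted p = 0.319) and -0.37 ± 0.47 on gelatin (adjusted p = 0.695). Matrigel minus gelatin was 1.38 ± 0.47 in Fz4-/- cells (adjusted p = 0.0588) and 0.22 ± 0.47 in wild type cells (adjusted p = 0.791). With the replicate number as a block, the genotype difference on Matrigel (0.78 ± 0.20, adjusted p = 0.0153) and the Matrigel difference in Fz4-/- cells (1.38 ± 0.20, adjusted p = 0.000997) passed. Both also passed without Fz4-/- Matrigel replicate 1 (1.35, adjusted p = 0.0456, and 1.94, adjusted p = 0.00822), and the second without wild type Matrigel replicate 1 (1.38, adjusted p = 0.0397).

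Sele was lower with Norrin-expressing cells in both genotypes. It lay at 3.02, 3.15 and 2.83 with Norrin-expressing cells in Fz4-/-, against 4.10, 4.62 and 4.21 with control cells. In wild type it lay at 3.00, 3.14 and 3.13 with Norrin-expressing cells, against 3.48, 4.46 and 4.06 with control cells. The Norrin groups lie near the median of the genes of other tissues, the wild type control group below their 90th percentile, and Norrin and control groups do not overlap. The differences were -1.31 ± 0.19 in Fz4-/- (adjusted p = 0.00150) and -0.91 ± 0.19 in wild type (adjusted p = 0.00352). They differed from each other by -0.40 ± 0.26, which did not pass (adjusted p = 0.619, 95% interval -0.95 to 0.15). With levels so near background, the sizes of these differences, and so the comparison between them, are less sure than the directions. Both falls lost their call with all 24 arrays in 1 fit (adjusted p = 0.190 in Fz4-/- and 0.146 in wild type). They also lost it with replicates 2 and 3 averaged into 1 sample (0.0851 and 0.0641). Between genotypes, the differences were -0.09 ± 0.19 with Norrin-expressing cells (adjusted p = 0.701) and 0.31 ± 0.19 with control cells (adjusted p = 0.174). The value with control cells passed at 0.54 without wild type control replicate 2 (adjusted p = 0.0186) and at 0.50 with each array centred on its median (adjusted p = 0.0395).

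Icam1 encodes the ligand of the leukocyte integrins LFA-1 and Mac-1, which mediate firm adhesion and crawling. On Matrigel it lay at 10.79, 11.50 and 11.48 in Fz4-/- cells, against 10.33, 10.72 and 10.66 in wild type cells. On gelatin it lay at 10.32, 10.51 and 10.49 in Fz4-/- cells, against 10.03, 10.34 and 10.28 in wild type cells. The gene was among the brighter probe sets in each, and the genotypes separate on Matrigel but overlap on gelatin. Icam1 was higher in Fz4-/- on Matrigel by 0.69 ± 0.18 (1.61-fold, adjusted p = 0.0228), a call lost without Fz4-/- Matrigel replicate 2 (0.57, adjusted p = 0.0860) or 3 (0.58, 0.0840) or wild type Matrigel replicate 1 (0.57, 0.0760). On gelatin the difference was 0.22 ± 0.18 (adjusted p = 0.505, 95% interval -0.17 to 0.61).

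Icam1 rose on Matrigel in Fz4-/- cells by 0.82 ± 0.18 (adjusted p = 0.00887), and in wild type cells the difference was 0.35 ± 0.18 (adjusted p = 0.203, with the replicate block 0.35 ± 0.10, adjusted p = 0.0302). These responses differed by 0.47 ± 0.25, which did not pass (adjusted p = 1.00). With Norrin-expressing cells Icam1 lay at 8.03, 8.38 and 8.35 in Fz4-/-, against 9.11, 8.87 and 8.98 with control cells. In wild type it lay at 7.24, 7.70 and 7.78 with Norrin-expressing cells, against 9.05, 8.96 and 8.95 with control cells. The genotypes had the same mean with control cells, 8.99, and parted with Norrin-expressing cells.

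Icam1 fell with Norrin-expressing cells by 0.74 in Fz4-/- (-0.74 ± 0.14, 1.67-fold, adjusted p = 0.0177) and by 1.41 in wild type (-1.41 ± 0.14, 2.66-fold, adjusted p = 1.95e-06). The Fz4-/- call was lost on leaving out 5 of the 6 Fz4-/- co-culture arrays in turn. These were control replicate 1 (-0.67, adjusted p = 0.124), 2 (-0.79, 0.0552) or 3 (-0.74, 0.0873) and Norrin replicate 1 (-0.62, 0.120) or 3 (-0.78, 0.0571). The difference between genotypes in this response was 0.68 ± 0.19 and did not pass (adjusted p = 0.0900, 95% interval 0.27 to 1.09), but passed after quantile normalization within the fit (0.66, adjusted p = 0.0245). Icam1 was higher in Fz4-/- with Norrin-expressing cells by 0.68 ± 0.14 (adjusted p = 0.000614), and the genotype difference with control cells was -0.00 ± 0.14 (adjusted p = 0.997, 95% interval -0.29 to 0.29).

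Vcam1 encodes the ligand of the integrin VLA-4, carried by lymphocytes and monocytes, and was the gene of the 5 that was lower in Fz4-/- cells in each culture. On gelatin its brightest probe set, 1451314_a_at, lay at 10.09, 9.96 and 9.995 in Fz4-/- cells, against 10.62 and 11.13 in replicates 1 and 2 of wild type cells, with the third between them. On Matrigel it lay at 9.87, 10.57 and 10.52 in Fz4-/- cells, against 10.60, 11.43 and 11.29 in wild type cells. No Fz4-/- array reached a wild type array on the same substrate. The differences were -0.90 ± 0.23 on gelatin (adjusted p = 0.0211) and -0.78 ± 0.23 on Matrigel (adjusted p = 0.0394). The gelatin call was lost without Fz4-/- gelatin replicate 2 (-0.87, 0.0638) or 3 (-0.89, 0.0603) or wild type gelatin replicate 2 (-0.79, 0.0871) or 3 (-0.86, 0.0738). The Matrigel call was lost in 7 such fits, at values of -0.88 to -0.56 and adjusted p of 0.0509 to 0.152. They left out Fz4-/- Matrigel replicate 1 or 3, wild type Matrigel replicate 2 or 3, Fz4-/- gelatin replicate 2 or 3, or wild type gelatin replicate 3.

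The other Vcam1 probe sets gave larger differences in the same direction. On gelatin they were -2.13 ± 0.47 for 1415989_at (adjusted p = 0.0115 over all probe sets) and -2.23 ± 0.45 for 1448162_at (0.00682), and on Matrigel -1.66 ± 0.47 and -1.62 ± 0.45. On Matrigel 1415989_at lay at 7.07, 9.13 and 9.29 in Fz4-/- cells, with replicate 1 far below, against 9.61, 10.51 and 10.37 in wild type cells. Matrigel minus gelatin did not pass for Vcam1, at 0.31 ± 0.23 in Fz4-/- cells (95% interval -0.20 to 0.81) and 0.19 ± 0.23 in wild type cells (-0.32 to 0.69).

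In co-culture Vcam1 lay at 6.33, 6.57 and 6.66 in Fz4-/- cells with Norrin-expressing cells, against 8.31, 8.54 and 8.43 in wild type cells. With control cells it lay at 7.09, 6.97 and 7.26 in Fz4-/- cells, against 8.52, 9.22 and 9.28 in wild type cells. The genotypes are well apart in both, by -1.91 ± 0.16 with Norrin-expressing cells (3.75-fold lower, adjusted p = 4.32e-08) and -1.90 ± 0.16 with control cells (3.74-fold lower, adjusted p = 4.81e-08). The other probe sets gave -2.52 and -2.96 with Norrin-expressing cells and -1.71 and -2.18 with control cells. As for each genotype difference in co-culture, array set and genotype cannot be told apart. Of 6 fibroblast markers, 4 were lower and 0 higher in Fz4-/- in both comparisons, at a mean level per array of 2.95 to 3.04 in Fz4-/- and 4.29 to 4.38 in wild type with Norrin-expressing cells, and 3.06 to 3.14 and 4.66 to 4.79 with control cells. Of 9 pericyte and smooth muscle markers, 6 were lower with Norrin-expressing and 5 with control cells, and 0 higher. The 16 genes of other tissues gave 9 and 10 lower, and 0 higher. Over all 18193 genes, 6980 were lower with Norrin-expressing and 7054 with control cells. The part of these markers in the Vcam1 difference was not tested.

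The response of Vcam1 to Norrin-expressing cells depended on the probe set. On 1451314_a_at it fell by 0.58 in wild type (-0.58 ± 0.16, adjusted p = 0.0299, with overlapping groups), and the difference was -0.59 ± 0.16 in Fz4-/- (adjusted p = 0.182, without overlap). The Fz4-/- difference passed without wild type control replicate 1 (-0.59, adjusted p = 0.0208). The wild type call was lost without control replicate 2 (-0.47, 0.126) or 3 (-0.45, 0.136) or Norrin replicate 1 (-0.52, 0.0804) or 3 (-0.58, 0.0763). On 1448162_at Vcam1 was higher with Norrin-expressing cells in wild type, by 0.35 ± 0.10 (adjusted p = 0.0493 over all probe sets), and the difference on 1415989_at was 0.65 ± 0.22 (0.0875). In Fz4-/- the difference was -0.43 ± 0.10 on 1448162_at (0.147) and -0.16 ± 0.22 on 1415989_at (0.936). The responses of the genotypes differed on 1448162_at by -0.78 ± 0.14 (adjusted p = 0.0102) and not on 1451314_a_at (-0.01 ± 0.24, 0.997). No direction of Vcam1 with Norrin in wild type holds over its probe sets.

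**Figure D3:**
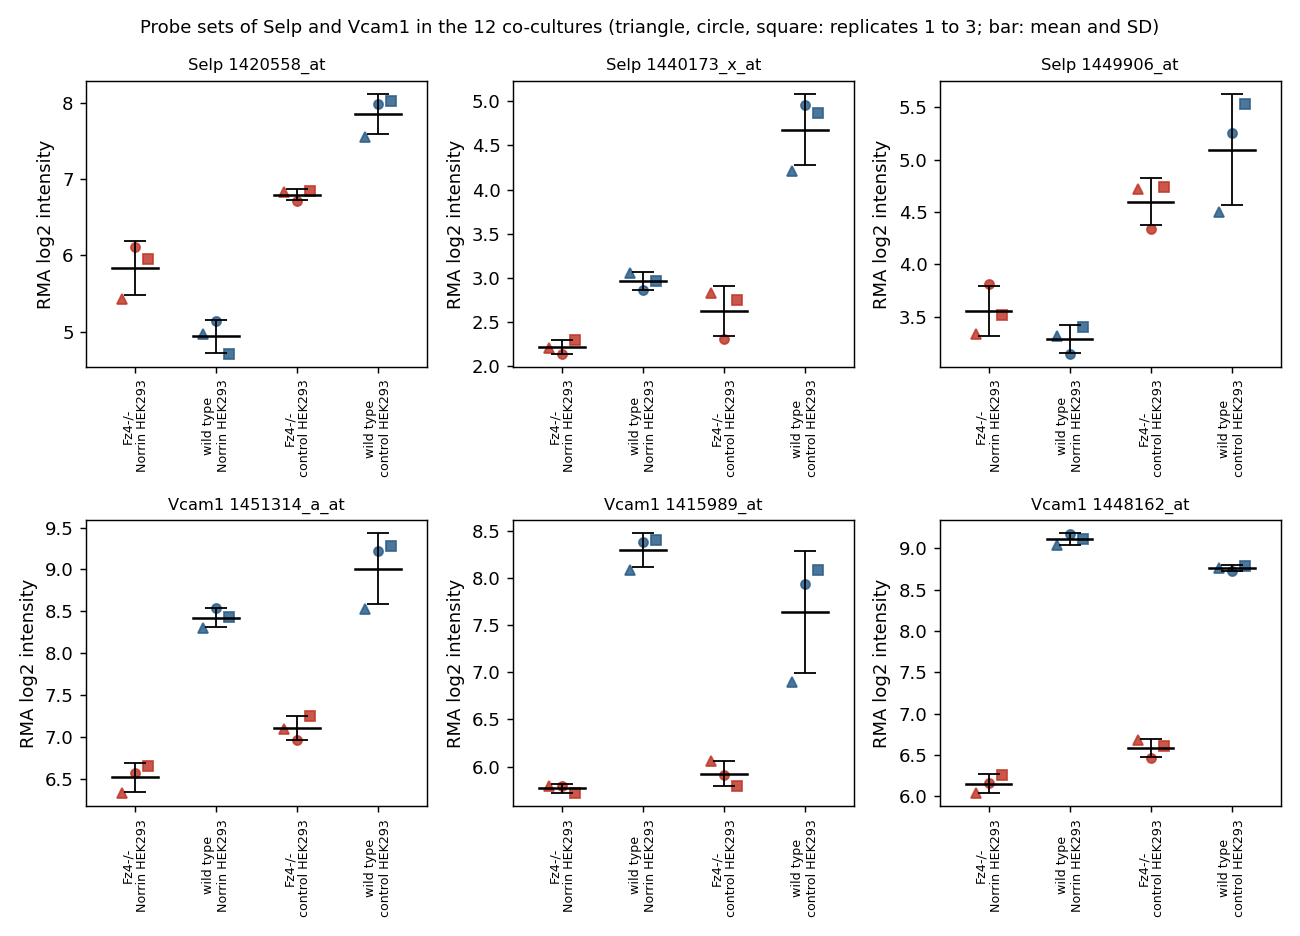
RMA log2 intensity (vertical axis) of the 3 Selp and 3 Vcam1 probe sets in the 12 co-cultures, Fz4-/- in red and wild type in blue, with the mean and SD of 3 arrays. Each Selp probe set is lower with Norrin-expressing than with control cells in wild type, while 1 of the Vcam1 probe sets has a mean of 8.43 with Norrin-expressing and 9.01 with control cells and another 9.11 and 8.76.

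Madcam1 encodes the ligand of the gut-homing integrin alpha4beta7 and is best known from venules of the gut. On gelatin it lay at 6.02, 5.81 and 5.79 in Fz4-/- cells, against 4.86, 4.85 and 4.93 in wild type cells. On Matrigel it lay at 5.95, 5.72 and 5.86 in Fz4-/- cells, against 4.65, 5.06 and 4.61 in wild type cells. The Fz4-/- arrays lay above the wild type arrays on both, and the wild type arrays lay below the 90th percentile of the genes of other tissues. Madcam1 was higher in Fz4-/- by 0.99 ± 0.12 on gelatin (1.99-fold, adjusted p = 0.000213) and 1.07 ± 0.12 on Matrigel (2.09-fold, adjusted p = 0.000125). The Fz4-/- arrays lay above that 90th percentile, 5.29, but around the highest value of the genes of other tissues, 5.94. With the wild type level in the background range and the Fz4-/- level near its top, these folds are less sure than their direction. In all 12 co-cultures it lay between 2.89 and 3.30, at the level of those genes, and no co-culture comparison passed. Matrigel minus gelatin was -0.03 ± 0.12 in Fz4-/- cells (95% interval -0.30 to 0.23) and -0.10 ± 0.12 in wild type cells (-0.37 to 0.16).

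Ordered by their means within the single cultures, Selp ran from Fz4-/- Matrigel (8.38 ± 0.16, SD) over Fz4-/- gelatin (7.43 ± 0.11) to wild type gelatin (4.13 ± 0.23) and wild type Matrigel (4.05 ± 0.27), and the last 2 do not differ beyond their spread. Sele ran from Fz4-/- Matrigel (7.33 ± 0.99) over wild type Matrigel (6.54 ± 0.74) and wild type gelatin (6.32 ± 0.41) to Fz4-/- gelatin (5.95 ± 0.42), with no neighbours apart. Icam1 was at 11.26 ± 0.40 in Fz4-/- Matrigel, then 10.57 ± 0.21 in wild type Matrigel, 10.44 ± 0.10 in Fz4-/- gelatin and 10.22 ± 0.16 in wild type gelatin, where the last 3 overlap. Vcam1, from low to high, was at 10.01 ± 0.07 in Fz4-/- gelatin and 10.32 ± 0.39 in Fz4-/- Matrigel, which overlap, and at 10.92 ± 0.27 in wild type gelatin and 11.10 ± 0.44 in wild type Matrigel, which also overlap. Madcam1 was at 5.87 ± 0.13 in Fz4-/- gelatin and 5.84 ± 0.12 in Fz4-/- Matrigel, then 4.88 ± 0.04 in wild type gelatin and 4.78 ± 0.25 in wild type Matrigel, with overlap within each genotype.

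Counter-receptors and selectin ligands, found on leukocytes and in part, as Emcn, on endothelium, were also read, and 14 of 15 listed were measured. Between genotypes on gelatin 3 were higher, 2 lower and 9 did not pass (median -0.13, -0.00 over all genes, of which 14.9% passed). Cd24a, a mucin-like ligand of P-selectin, was higher in Fz4-/- by 1.78 ± 0.15, and Itga4, the alpha chain of VLA-4, by 1.61 ± 0.15. Emcn, an endothelial sialomucin that limits adhesion, was higher by 0.64 ± 0.12, and Itgb2, the chain shared by the leukocyte integrins, lower by -0.66 ± 0.19 at a level of 3.44 in Fz4-/- cells, near background. With Norrin-expressing cells in wild type 2 were higher and 0 lower (median 0.06, -0.02 over all genes, of which 981 of 18193 rose). These were Cd24a, by 1.34 ± 0.13, and Emcn, by 0.49 ± 0.15. In Fz4-/- 0 passed by limma, 0 also at an unadjusted p below 0.05. The mean level of 10 leukocyte markers per array was 4.90 to 5.16 in Fz4-/- and 5.34 to 5.58 in wild type cells on gelatin, and their part was not tested.

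Other endothelial adhesion and transmigration genes, all 17 measured, were in part higher with Norrin-expressing cells. In wild type 5 rose, 0 fell and 12 did not pass (median 0.12, -0.02 over all genes, of which 981 of 18193 rose), among them Icam2, a constitutive integrin ligand, by 1.29 ± 0.13, Cdh5, the junctional VE-cadherin, by 1.06 ± 0.15, Esam by 1.06 ± 0.11 and Pecam1 by 0.74 ± 0.17. In Fz4-/- 0 passed by limma and 3 had an unadjusted p below 0.05, as had 1554 of all 18193 genes (median 0.07). The response was smaller in Fz4-/- than in wild type for Icam2, by -1.22 ± 0.18 (adjusted p = 0.000849), and Esam, by -0.66 ± 0.16 (adjusted p = 0.0381). On gelatin 0 were higher, 1 lower and 16 did not pass between genotypes (14.9% of all genes passed). The junctional Jam3 was at -0.99 ± 0.11, and 5 of the list passed with the replicate block. On Matrigel against gelatin, Jam2 rose by 1.12 ± 0.22 in Fz4-/- and by 1.21 ± 0.22 in wild type cells. There 3 rose and 0 fell in Fz4-/- (6 passed with the block), where 19.7% of all genes passed. In wild type 3 rose and 2 fell, where 18.4% of all genes passed.

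Genes of Weibel-Palade bodies, the granules that hold P-selectin, were in part higher where Selp fell. Of 13 measured of 15 listed, 6 rose, 0 fell and 7 did not pass with Norrin-expressing cells in wild type (median 0.10, against the same -0.02 over all genes, of which 981 of 18193 rose). Plat, tissue plasminogen activator, was at 1.21 ± 0.11, Edn1, the vasoconstrictor endothelin, at 0.99 ± 0.13 and Angpt2, which primes vessels for inflammation, at 0.66 ± 0.16. Fitted on the arrays of this comparison alone, 2 passed. In the same arrays Selp fell by 2.91, and 12 of 14 endothelial markers were higher. The part of that rise in these 13 genes was not tested, and Vwf, 1 of them, stayed near background on every array. In Fz4-/- 0 passed by limma, and 3 had an unadjusted p below 0.05, as had 1554 of all 18193 genes (median -0.06). Between genotypes on gelatin 2 were higher, 1 lower and 10 did not pass (median -0.13, with 14.9% of all genes past). Igfbp7 was at 1.60 ± 0.08 and Rab27a, which docks the granules, at -1.06 ± 0.24, and 5 of the list passed with the replicate block.

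NF-kB subunits and feedback genes, read because NF-kB induces the adhesion genes, were in part lower with Norrin-expressing cells in wild type. Of 18 measured of 20 listed, 10 fell, 0 rose and 8 did not pass (median -0.58, -0.02 over all genes, of which 4.18% fell). Nfkbiz, an inducible IkB-like cofactor, was at -1.73 ± 0.13, Tnfaip3, the deubiquitinase A20 that ends the signal, at -1.05 ± 0.15, Tnfaip2 at -1.01 ± 0.14 and the subunit Relb at -0.94 ± 0.17. The count was 6 with probe sets that carry no cross-hybridization suffix. In Fz4-/- 2 fell, 0 rose and 16 did not pass (median -0.23, with 0.242% of all genes falling). These were Nfkbiz at -1.07 ± 0.13 and Tnip1, a partner of A20, at -0.61 ± 0.12. The difference between genotypes passed in 0 of 18 by limma (median 0.32). An unadjusted p below 0.05 was reached by 9 of 18, and by 2200 of all 18193 genes.

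**Figure D4:**
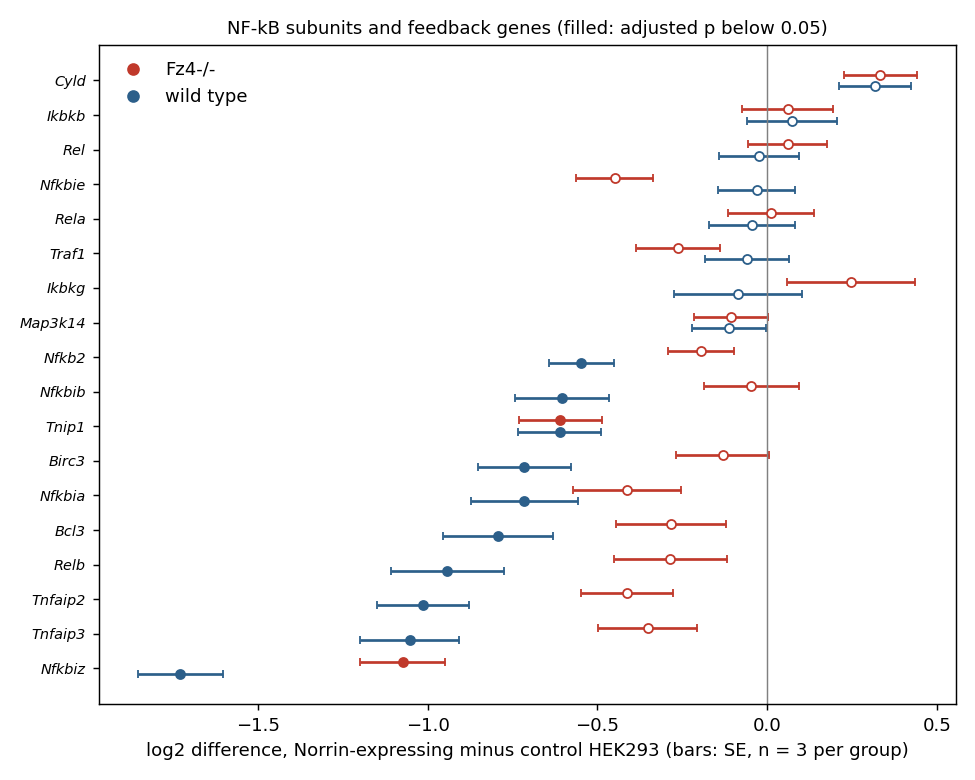
Log2 differences (horizontal axis) of 18 NF-kB subunits and feedback genes, Norrin-expressing minus control HEK293, in Fz4-/- (red) and wild type (blue) cells, with SE. Filled points passed at an adjusted p below 0.05, 2 in Fz4-/- and 10 in wild type, all below 0, and Nfkbiz lies lowest in both.

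The same list was also read between genotypes and for Matrigel. Of all genes, 14.9% passed between genotypes on gelatin and 15.7% on Matrigel. For Matrigel against gelatin, 19.7% passed in Fz4-/- and 18.4% in wild type cells. Counts of the list near these shares are not read as results about it. On gelatin, between genotypes, 1 was higher, 4 lower and 13 did not pass (median -0.20), with the IkB gene Nfkbia at -0.52 ± 0.11 and the adaptor Traf1 at 0.56 ± 0.16, while on Matrigel 1 was higher, 1 lower and 16 did not pass (median 0.04), with Traf1 at 1.32 ± 0.16. Matrigel against gelatin gave 4 higher, 2 lower and 12 not past in Fz4-/- cells (10 past with the replicate block), with Traf1 at 0.86 ± 0.16 and Nfkbie at 0.79 ± 0.15. In wild type cells it gave 1 higher, 2 lower and 15 not past (6 past with the block), with Nfkbie at 0.54 ± 0.15 and Tnfaip3 at -1.19 ± 0.34. Between genotypes in co-culture, where the array sets differ and 49.9% and 50.9% of all genes passed, 4 were higher and 8 lower in Fz4-/- with Norrin-expressing cells, and 3 higher and 10 lower with control cells.

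Upstream of NF-kB, 19 of 22 receptors and adaptors were measured. On gelatin 3 were higher, 4 lower and 12 did not pass in Fz4-/- cells (median 0.01, with 14.9% of all genes past). The Toll-like receptors Tlr3 and Tlr4 were at -1.999 ± 0.236 and -0.75 ± 0.11, and the interleukin-1 co-receptor Il1rap at -1.15 ± 0.26. With Norrin-expressing cells in wild type 1 rose and 1 fell (median -0.06, with 981 of all 18193 genes rising and 760 falling), the fall being Tlr2 at -1.02 ± 0.14. In Fz4-/- 1 rose, Tlr3 by 0.60 ± 0.11, at a mean of 5.82 with Norrin-expressing and 5.22 with control cells. Of 15 inducing cytokines, 0 rose and 1 fell with Norrin-expressing cells in wild type (median -0.07), Lif at -0.78 ± 0.15 and a level of 2.98, near background. In Fz4-/- 0 passed by limma, 0 also at an unadjusted p below 0.05. On gelatin 0 were higher and 2 lower in Fz4-/- cells (median -0.06, with 14.9% of all genes past), Csf2 at -2.27 ± 0.70 and Il33 at -0.66 ± 0.19.

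By likeness of pattern over the 24 arrays, each gene centred within the 3 array sets, the genes nearest to Selp were Arhgef17 (Pearson r = 0.93), Nrp2 (0.90), Tgm2 (0.90), Bst1 (0.89) and Plekhg3 (0.89), among 515 genes that met the limits on level and spread. These points share their culture groups, so the r describes the group pattern and has no test. The genes named for Selp, and below for Icam1, were picked on these same arrays. Their differences there follow in part from that choice and are given as description. On gelatin Arhgef17 was higher in Fz4-/- by 2.10 ± 0.12 and Tgm2 by 2.11 ± 0.17. With Norrin-expressing cells in wild type Arhgef17 (-0.72) and Bst1 (-1.11) fell, while Tgm2 was at -0.39 and did not pass. The genes nearest to Icam1 were Lcn2 (0.84), N4bp2l1 (0.83), Ccl2 (0.80), Ikbke (0.79) and Dcn (0.76). Each of these fell with Norrin-expressing cells in wild type, from -1.40 for N4bp2l1 to -5.80 for Lcn2, and in Fz4-/- Lcn2 (-2.07) and Ikbke (-0.80) fell. Sele, Vcam1 and Madcam1 missed the limits and got no such list.

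Selp and Sele lie side by side on chromosome 1. The measured genes near them, Mettl18, F5 and Slc19a2, did not pass with Norrin-expressing cells in either genotype, at -0.21 to 0.36, and F5 lay at 2.28 to 3.31 throughout. On gelatin their genotype differences were -0.20 to 0.21 and did not pass, while Selp differed by 3.30. Next to Icam1 on chromosome 9, Icam4, a related adhesion gene, rose on Matrigel by 0.70 in Fz4-/- and 0.60 in wild type cells, and neither Icam4 nor Icam5 passed with Norrin-expressing cells. Next to Vcam1 on chromosome 3, Cdc14a (0.84) and Slc30a7 (0.61) were higher in Fz4-/- on gelatin, opposite to Vcam1. The neighbours of Madcam1 on chromosome 10, C2cd4c, Shc2, Cdc34 and Tpgs1, did not pass between genotypes on gelatin or Matrigel.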

How the data were processed

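The deposited values are log2 intensities that the authors made with RMA, per the submitters' processing notes, whose version is not given in the sources used here. Of 45101 probe sets, 64 controls were left out. Platform annotation gave 34945 probe sets 1 symbol, 932 several and 9160 none, and 34741 matched RefSeq by gene ID. Each gene was read from its probe set with the highest mean, and 12 single cultures and 12 co-cultures were fitted apart with limma 3.58.1 (R 4.3.3). Figures used Python 3.11.15 and matplotlib 3.10.9. The fits were also run on simulated data with known changes and independent noise per array. That setting has no shift of replicate 1, so it cannot show whether calls hold in these data. With 3 arrays per group, array number limits precision, and an exact permutation test could not go below p = 0.1.

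The members and lists were chosen with earlier results of these data known. Each list's up to 4 past genes with the largest differences are named. Genes like a member are the 5 with the highest Pearson r among genes above the median level and with an SD of at least 0.5. Same-numbered replicates pair the samples where every correlation of their deviations exceeds 0.1. That held in the 4 single-culture comparisons (0.243 to 0.718), for Norrin in wild type (0.100 to 0.361) and for genotype with Norrin-expressing cells (0.138 to 0.372), and the pairing comes from the data. Alternatives were other scalings, filters, probe set rules, fits, the replicate block and leave-outs.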

Additional observations from a re-analysis of the deposited data

Results flagged for a closer look

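The response of Selp to Norrin-expressing HEK293 cells differed between genotypes, as limma's test of that difference gave 1.95 (Fz4-/- minus wild type, adjusted p = 0.000126). Over its alternatives the difference ran from 1.34 to 2.33, with adjusted p from 2.60e-05 to 0.0221. The dimmer Selp probe set 1440173_x_at gave 1.30 (adjusted p = 0.0102), and 1449906_at gave 0.76 and did not pass (0.308). For Vcam1, the probe set 1448162_at differed in its Norrin response by -0.78 (adjusted p = 0.0102), while the probe set read for the gene gave -0.01.

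Selp was higher in Fz4-/- cells grown alone, by 3.30 on gelatin and 4.33 on Matrigel, and lower with control HEK293 cells, by -1.06, with no overlap between genotypes in any of these. The single cultures and co-cultures were fitted apart, and the difference between them was not tested.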

How the results depend on the processing

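Over the 5 genes and 10 comparisons, 1059 results kept direction and call, 44 lost and 21 gained a call, and 36 changed sign. Causes were not tested unless named. Genes past the threshold between genotypes on Matrigel (4) were 2 with only genes above the median level (which drops members), only the arrays compared, or replicates 2 and 3 averaged, and on gelatin (3) were 1 above the median level. For Matrigel in Fz4-/- cells (2) they were 1 above the median level, 4 without replicate 1 of every group and 1 averaged, and in wild type (0) 1 with the replicate block and 2 without replicate 1 of every group. With Norrin they were 1 with all 24 arrays in 1 fit and 0 averaged in Fz4-/- (3), and 2 in both in wild type (4). The Matrigel interaction (0) gave 1 without replicate 1 of every group. The Norrin interaction (1) gave 2 after quantile normalization, without cross-hybridizing probe sets, or without replicate 1 of every group. The last setting and the averaging were chosen after seeing the data. Leaving out 1 array, or replicate 1 of every group, gave 2 to 5 and 2 to 3 between genotypes on Matrigel and gelatin. Between genotypes with Norrin and control cells, these fits gave 3 to 3 and 2 to 3. For Matrigel in Fz4-/- and wild type they gave 2 to 4 and 0 to 2, and for Norrin 1 to 4 and 3 to 4. The Matrigel and Norrin interactions had 0 to 1 and 1 to 2.

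Sign changes, apart from Vcam1 with Norrin in wild type, were of small differences. Icam1 between genotypes with control cells was 0.11 after quantile normalization, 0.19 centred and 0.014 averaged (-0.063 to 0.057 leaving out 1 array). Madcam1 with Norrin cells was 0.21, 0.21 and 0.025 (-0.074 to 0.084), and Sele there 0.12 and 0.12 after quantile normalization and centring. Selp for Matrigel in wild type was 0.14 as the mean of its probe sets and 0.017 averaged (-0.21 to 0.072). Vcam1 with Norrin in wild type was 0.14 as the mean of its probe sets and 0.35 without cross-hybridizing ones. Its Norrin interaction was 0.034 after quantile normalization, 0.012 centred and 0.27 without replicate 1 of every group (-0.14 to 0.24), and that of Madcam1 0.0054 averaged (-0.15 to 0.016). Leaving out 1 array, Madcam1 for Matrigel in Fz4-/- was -0.085 to 0.043, Sele in wild type -0.069 to 0.64, and the Matrigel interaction -0.012 to 0.22 for Madcam1 and -0.13 to 0.34 for Vcam1. The block, whose pairing comes from the data, changed no call of the 5 genes beyond those given beside the results. Over all genes it moved the calls between genotypes to 4379 on Matrigel, against 2854 without it, and to 4138 on gelatin, against 2719. Numbers did not pair for Norrin in Fz4-/- (r -0.186 to 0.006, 0 of 6 arrays correlated best with their own number) or genotype with control cells (-0.048 to 0.066, 2 of 6). Of the comparisons taken as paired, Matrigel against gelatin had only 3 of 6 in Fz4-/- and 2 of 6 in wild type, the others 4 to 6. There r was largest for replicate 1, at 0.661 and 0.718, against at most 0.445 and 0.381 for the other numbers. The block may thus mostly take up the replicate 1 shift in these 2. Fits on only the arrays compared were not run for the interactions.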
